A study of Mus musculus with 8 samples.

Results

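CCR4-NOT is the main complex that shortens the poly(A) tails of cytoplasmic mRNA, and the transcripts of 10 genes of the complex are described here in mouse spermatocytes. The members are Cnot1, Cnot2, Cnot3, Cnot4, Cnot6, Cnot6l, Cnot7, Cnot8, Cnot10 and Rqcd1, the last being the older symbol of Cnot9. They were taken by gene symbol, 10 of 23235 symbols in the deposited tables, and 10 of 10 were among the 15899 genes kept for the tests, which had FPKM (a fragment count divided by transcript length and library size) above 1 in at least 1 library. RNA was sequenced from spermatocytes sorted by flow cytometry after staining with a DNA dye, from male C57BL/6 mice that the methods give as 6 weeks old. There were 8 libraries in 4 groups of 2. WT LZ and WT PD are leptotene to zygotene and pachytene to diplotene cells of WT males. Cnot4-null LZ and Cnot4-null PD are the same stages, labelled Cnot4-KO, from Cnot4 fl/fl;Stra8-Cre males. There, Cre driven by Stra8 is active in male germ cells around meiotic entry and deletes exon 2 of Cnot4, while cells outside the germ line keep the gene. The labels do not say whether WT males carried a floxed allele or Cre, nor what males the duplicates came from, which the paper calls biological replicates. The p-values below therefore measure the spread between these libraries.

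CNOT1 is the scaffold on which the complex is built. CNOT2 and CNOT3 form the NOT module at its C-terminal end, CNOT9 binds the middle and CNOT10 the N-terminal region, and the poly(A) tail is removed by a CCR4-type nuclease (CNOT6 or CNOT6L) and a CAF1-type nuclease (CNOT7 or CNOT8), the latter joining the former to the scaffold. CNOT4 is a RING-type E3 ubiquitin ligase with an RNA recognition motif that is only loosely attached to the mammalian complex, and mice without CNOT7 have defective spermatogenesis.

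Cnot4, the targeted gene, lies at chr6:34972066-35083737 on the minus strand of mm9 and has 3 annotated coding transcripts of 3322, 3526 and 5605 nt. Exon 2 is the same in these transcripts and spans chr6:35029961-35030226. Of its 266 nt, 92 precede the start codon and 174, or 58 codons, are coding, so the annotated start codon itself lies in the exon. The paper describes the deletion of the 266 nt as a shift of the reading frame. The coding part is shown because it is what the deletion removes from the reading frame. It is given 5′ to 3′ from chr6:35029961-35030134, minus strand, with the start codon and the 8 in-frame cysteine codons in capitals.
Cnot4 exon 2: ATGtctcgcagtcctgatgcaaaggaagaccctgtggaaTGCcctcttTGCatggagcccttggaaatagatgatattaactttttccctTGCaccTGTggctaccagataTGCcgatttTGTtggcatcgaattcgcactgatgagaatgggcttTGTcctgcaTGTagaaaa
The cysteine codons are numbers 14, 17, 31, 33, 38, 41, 53 and 56 of the reading frame, and the encoded cysteines belong to the zinc-binding RING finger.

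Cnot4 was listed at 36.0 and 34.9 FPKM at LZ and 76.6 and 73.1 at PD in WT, and 43.2 and 34.6 at LZ and 65.9 and 53.5 at PD in Cnot4-null. Cnot4-null PD libraries were thus below both WT PD libraries and above all LZ libraries. Exon 2 makes up 4.75, 7.54 and 8.01% of the coding transcripts, so nearly all of a gene-level value comes from exons outside the deletion. These levels therefore do not check the genotype, which is taken from the labels.

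The depth behind the values was estimated from genes with 1 annotated transcript and very low FPKM, in which the value that 1 fragment adds recurs. In units of 1e6 fragments, the estimates were 5.89 and 6.24 at LZ and 7.20 and 7.87 at PD in WT, and 5.51 and 6.29 at LZ and 5.87 and 4.84 at PD in Cnot4-null. With the length of the longest coding transcript, the lowest member value stood for about 17.3 fragments (Cnot3 in WT PD replicate 1), and the other WT PD library held about 57.7 fragments of Cnot3. For the 9 other members the fewest were about 123 fragments and the most 4581. The total reads per library listed in the supplement of the paper are in another order than these estimates. The estimates were not checked further, and the fragment counts rest on them. Taken as they are, counting error would be of weight for Cnot3 in WT PD and small for the rest. Since the authors kept uniquely mapped reads, trimmed to 50 bases, 50-base stretches with exact copies elsewhere in the genome may be lost. Such stretches made up 25.2% of the Cnot3 transcript, 11.4% of Cnot8 and 10.5% of Cnot1, and 0 in the 7 other members. The paper gives paired-end reads, and the pairing was not taken into account, so the loss may be smaller. Between members, 0 exact stretches were shared, also between the paralogs Cnot7 and Cnot8 and between Cnot6 and Cnot6l.

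The libraries were compared with marker lists of germ cells and other testis cells, because the Cnot4-null PD libraries stood apart. The gene named as leading a list is the most abundant over the 8 libraries together, and another may lead in a single group. The 7 Leydig cell genes summed to 10077 and 22282 FPKM at PD and 10.8 and 19.0 at LZ in Cnot4-null, and 116 and 7.07 at PD and 17.2 and 9.89 at LZ in WT. Insl3 was the most abundant of them, with 9669 and 21608 FPKM in Cnot4-null at PD, and 7 of 7 were above both WT PD libraries. The steroidogenic Leydig markers Cyp11a1, Cyp17a1, Hsd3b1 and Hsd3b6 were between 56.1 and 278 FPKM there. The 8 spermatid genes summed to 16067 and 7535 FPKM at PD and 4067 and 721 at LZ in Cnot4-null, and 426 and 277 at PD and 1852 and 1541 at LZ in WT, with Prm1 the most abundant and 8 of 8 above WT PD. The 7 spermatogonial genes, led by Uchl1, summed to 324 and 446 FPKM at PD and 463 and 653 at LZ in Cnot4-null, and 19.6 and 12.9 at PD and 717 and 683 at LZ in WT, again with 7 of 7 above WT PD. In contrast, 10 of 10 late spermatocyte genes were below WT PD. Their sums, led by Ldhc, were 5618 and 1961 FPKM at PD and 380 and 224 at LZ in Cnot4-null, and 12258 and 11362 at PD and 331 and 447 at LZ in WT. The 9 early spermatocyte genes found (of 10), led by Sycp3, summed to 1264 and 814 FPKM at PD and 4057 and 2346 at LZ in Cnot4-null, and 1532 and 1549 at PD and 2021 and 2317 at LZ in WT. Of these, 4 were above and 4 below both WT PD libraries in Cnot4-null PD. The share of all genes above or below both WT PD libraries was not computed, so the marker counts here and below have no background. By the tests described below, a different criterion, 41.6% of all genes were called higher and 11.5% lower in Cnot4-null PD than in WT PD.

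Other somatic lists had lower sums than the Leydig list in Cnot4-null PD. The 7 peritubular and stromal genes, led by Dcn, summed to 294 and 798 FPKM in Cnot4-null PD and 19.6 and 2.59 in WT PD, and lay between 3.69 and 9.61 in LZ libraries. The 9 Sertoli cell genes found (of 10), led by Ctsl over the 8 libraries but not at PD, summed to 151 and 285 FPKM at PD and 131 and 99.5 at LZ in Cnot4-null, and 15.6 and 32.6 at PD and 178 and 146 at LZ in WT. Of the Sertoli genes, Fshr was at 0 in all 4 PD libraries. Sox9 was at 0.590 and 0.384 FPKM for Cnot4-null at PD, above 0.130 and 0.238 in WT PD. Clu was at 94.6 and 196 FPKM in Cnot4-null PD and 8.06 and 15.3 in WT PD. The 7 macrophage symbols found (of 8, of which Emr1 and Adgre1 name the same gene), led by Lyz2, summed to 27.2 and 116 FPKM at PD and 12.4 and 5.12 at LZ in Cnot4-null, and 3.25 and 2.96 at PD and 37.5 and 1.03 at LZ in WT, and C1qa was at 0 in WT PD. The 4 endothelial genes, led by Cdh5, summed to 1.76 and 7.36 FPKM in Cnot4-null PD and to 0.454 or less in the other libraries. Both WT PD libraries thus had the highest sums of late spermatocyte markers, and both Cnot4-null PD libraries had higher markers than WT PD of Leydig cells, stroma, spermatids, spermatogonia and macrophages, and of the 9 Sertoli genes 7 were above WT PD. These are bulk samples of sorted cells, in which fewer cells of a type and less RNA per cell cannot be told apart. In the paper, sorted cells were stained for SYCP3 and pH2AX to check their identity and purity. Whether cells of other types had a part in the differences of CCR4-NOT members at PD was not tested.

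**Figure D1:**
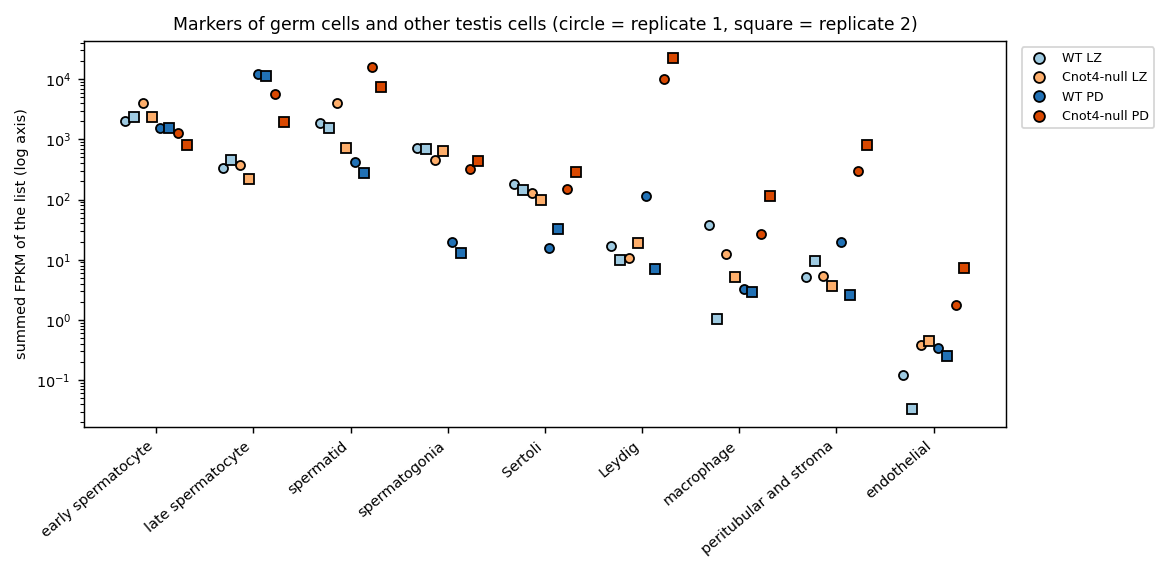
Summed FPKM (log axis) of 9 marker lists in each library, coloured by group, with circles for replicate 1 and squares for replicate 2. Leydig sums were 10077 and 22282 in Cnot4-null PD, and late spermatocyte sums were highest in WT PD, at 12258 and 11362.

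Levels in FPKM are per transcript length. Those of Cnot3, Cnot8 and Cnot1 may be understated if stretches were lost to unique mapping. The order below is therefore that of the values as listed, and close ranks that involve these 3 genes are not settled. In WT LZ, Cnot10 was the highest at 52.0 ± 3.24 FPKM (SD, n = 2) and Cnot3 the lowest at 10.8 ± 2.07 (SD, n = 2). Cnot2, Cnot6, Rqcd1, Cnot4, Cnot8, Cnot1 and Cnot7 followed Cnot10 with means between 38.0 and 26.2, and each overlapped its neighbour in that order. Cnot6l, at 16.6 ± 2.83 (SD, n = 2), overlapped Cnot7. The order in WT PD was different. Cnot4 at 74.8 ± 2.46 and Cnot1 at 72.2 ± 3.94 were at the top, Cnot2 at 49.1 ± 5.36 and Rqcd1 at 29.5 ± 1.48 followed, each apart from the next, Cnot10, Cnot7 and Cnot6 overlapped below them, Cnot8 was apart from these, and Cnot6l at 2.11 ± 0.151 and Cnot3 at 1.73 ± 1.24 overlapped at the bottom (SD, n = 2 each). In Cnot4-null LZ the order ran from Cnot6 at 47.5 ± 5.22 to Cnot3 at 11.5 ± 1.05, and in Cnot4-null PD from Cnot4 at 59.7 ± 8.74, apart from the rest, to Cnot6l at 6.63 ± 3.38 (SD, n = 2 each).

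**Figure D2:**
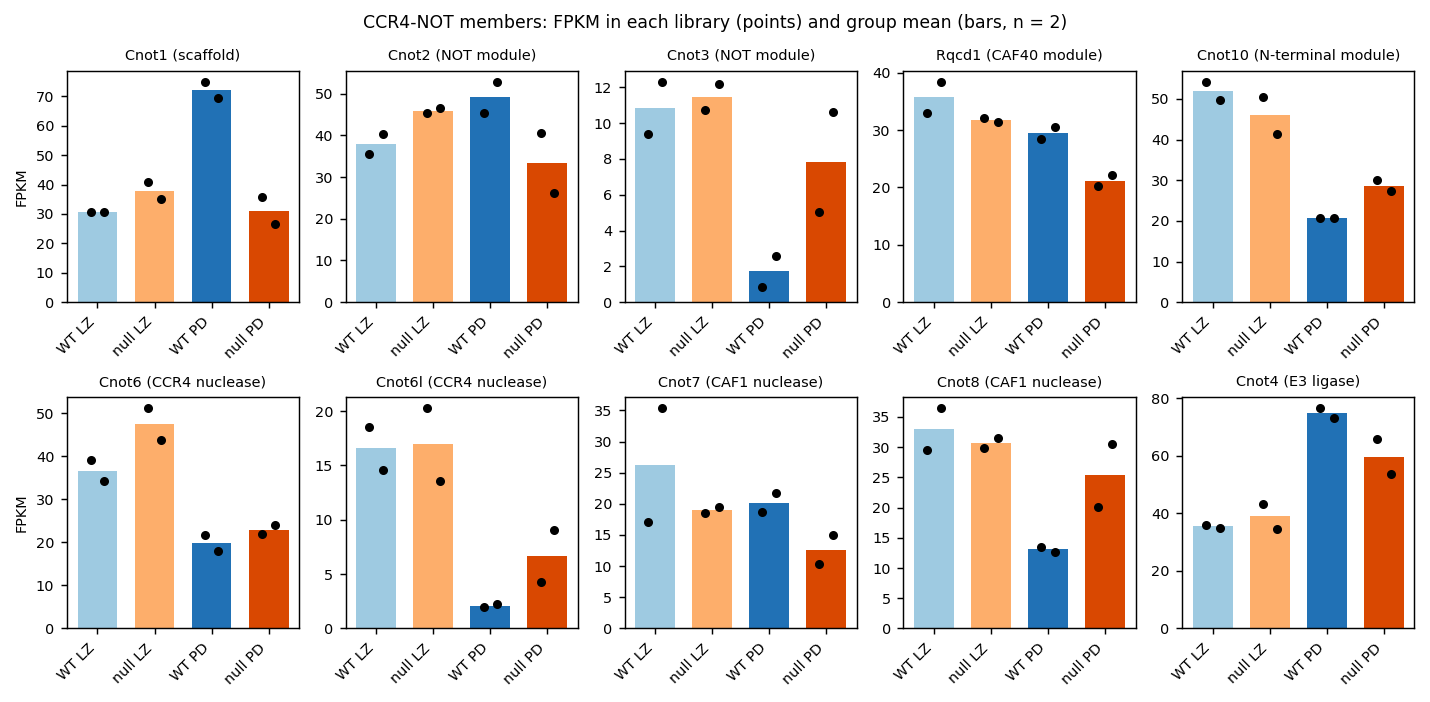
FPKM of each of the 10 members in the 8 libraries (points) with the group mean (bars, n = 2), 1 panel a gene with its own axis from 0. Cnot1 was at 75.0 and 69.4 in WT PD and between 26.7 and 40.8 in the other 6 libraries.

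The first comparison asked how the subunits change as WT spermatocytes go from LZ to PD. Tests were made by limma on log2(FPKM + 1) over all genes kept, and a gene is called when its Benjamini-Hochberg adjusted p is under 0.05. On this scale, differences of genes with low values are understated. Cnot1 and Cnot4 rose, and Cnot3, Cnot10, Cnot6, Cnot6l and Cnot8 fell. Thus 2 members were called higher, where 21.6% of all genes tested were higher, and 5 lower, where 36.2% were lower. The median difference was -0.57 over the 10 members and -0.32 over all genes. The balance of directions depended on the scaling. After rescaling to the same median FPKM, 4 members were called higher (Cnot1, Cnot4, Cnot2 and Rqcd1), as were 5170 of 15899 genes. Lower were 2 members (Cnot3 and Cnot6l) and 4274 genes, with medians of 0.29 over the members and 0.052 over all genes. Quantile normalization again gave 2 members higher and 5 lower, with 4120 genes higher and 4815 lower. Without each of the 8 libraries in turn, 6 (without WT PD replicate 2) or 7 members were called, and 7 with both Cnot4-null PD libraries left out of the model, an alternative chosen after seeing the data.

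In Cnot4-null cells, where the same question was asked, 1 member was called higher at PD than at LZ (27.8% of all genes were) and 4 lower (18.2%). Cnot4 rose, and Rqcd1, Cnot10, Cnot6 and Cnot6l fell. The median difference was -0.57 over the members and 0.19 over all genes. After quantile normalization 1 member was called higher and 6 lower (2974 and 4986 of 15899 genes), and after rescaling 0 and 8 (3332 and 5180 genes). Cnot6 was called also without each of the 8 libraries, and each of the 4 others lost its call without at least 1 library, as given with each gene. Called members ranged from 1 (without Cnot4-null LZ replicate 1, WT PD replicate 1 or WT PD replicate 2) to 6 (without Cnot4-null PD replicate 2).

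Between the genotypes, 0 of 10 members were called at LZ, where limma called 0.0943% of all genes, and 0 of 10 had an unadjusted p under 0.05 (1013 of all genes did). With both Cnot4-null PD libraries left out, again after seeing the data, 0 members and 13 genes were called. The differences ran from -0.35 for Cnot7 to 0.36 for Cnot6 on the log2 scale. At PD, 3 members were called higher in Cnot4-null (Cnot3, Cnot6l and Cnot8), where 41.6% of all genes were higher, and 1 lower (Cnot1), where 11.5% were lower. The median difference at PD was -0.061 over the members and 0.66 over all genes. By the interaction of genotype and stage in the same model, 1 member, Cnot1, was called lower (3.97% of all genes), and 0 members higher (limma, 26.0% of all genes), with 6 members at an unadjusted p under 0.05 in either direction, as were 6995 of 15899 genes. Without 1 library, called members ranged at PD from 1 (without WT PD replicate 1) to 5 (without Cnot4-null PD replicate 1), and in the interaction from 0 (without either WT PD library) to 5 (without Cnot4-null PD replicate 1). For a single gene, exact permutation of 2 against 2 libraries reaches at best p = 0.333. The WT comparison of stages and the comparison of genotypes at PD share the WT PD libraries, so their values are set side by side below and are not independent.

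How the libraries are scaled matters for each comparison that involves PD. The median log2(FPKM + 1) of the genes kept was 2.02 and 2.01 for WT at PD, 3.18 and 3.24 for Cnot4-null at PD, and between 2.63 and 2.76 in LZ libraries. After quantile normalization the median gene differed by -0.10 between the genotypes at PD, and 4 members were then called, each lower, as were 4078 of 15899 genes (2835 were higher). After rescaling to the same median FPKM it differed by -0.21, and 7 members were called, each lower, as were 6376 genes (3724 were higher). In the interaction, rescaling gave 7 members called, each lower (Cnot1, Cnot2, Rqcd1, Cnot10, Cnot6, Cnot7 and Cnot4). Of the 7306 genes then called in either direction, 5129 were lower and 2177 higher. Quantile normalization gave 1 member lower, Cnot1, and of 3514 genes called 1966 were lower and 1548 higher. A direction between the genotypes at PD is therefore given together with its value relative to the median of all genes, and shares and ratios within a library, which need no scaling, are given after the single members.

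**Figure D3:**
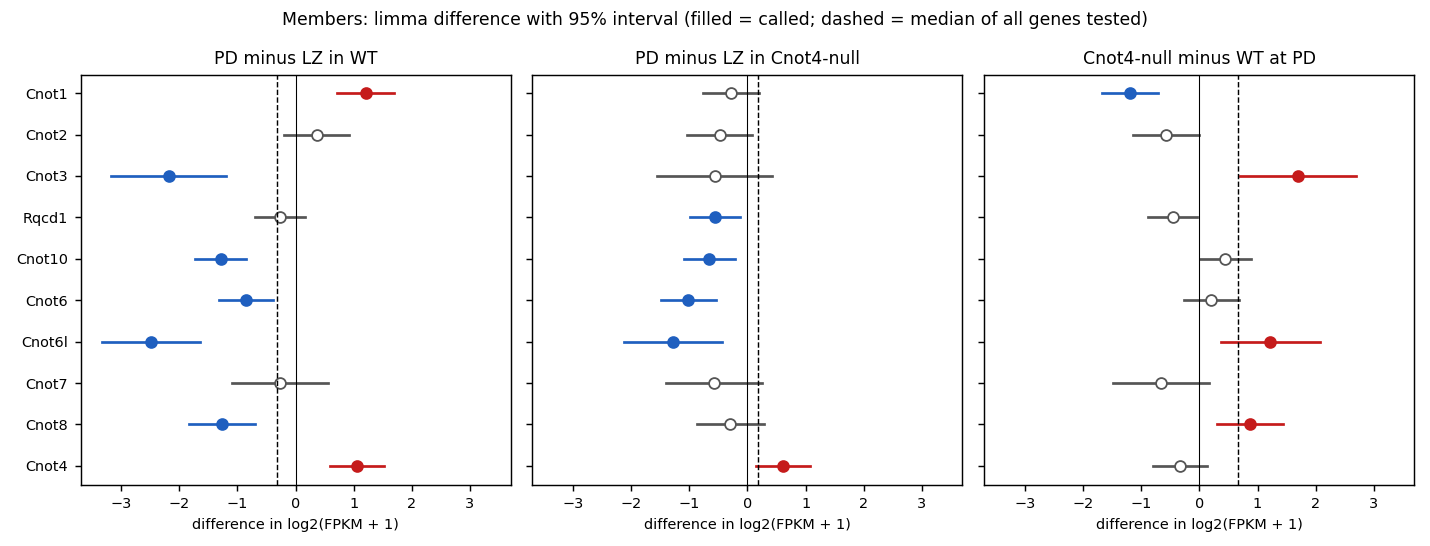
Difference in log2(FPKM + 1) of each member with its 95% interval from limma, for PD minus LZ in WT, PD minus LZ in Cnot4-null, and Cnot4-null minus WT at PD (filled, called; dashed line, median of all genes tested). The dashed line lies at -0.32, 0.19 and 0.66, and Cnot1 lies at 1.20, -0.29 and -1.20.

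Cnot1, the scaffold, lies at chr8:98243351-98331366. It was listed at 30.7 and 30.7 FPKM at LZ and 75.0 and 69.4 at PD in WT, and 40.8 and 35.0 at LZ and 35.6 and 26.7 at PD in Cnot4-null. Both WT PD libraries stood above the 6 others, and the Cnot4-null PD libraries lay within or below the LZ range. From LZ to PD it rose by 1.20 in WT (limma, SE 0.21, adjusted p = 0.00177), or by 2.08 with rescaled values. The difference in Cnot4-null was -0.29 (adjusted p = 0.284). The latter was called without Cnot4-null PD replicate 1 (-0.49, adjusted p = 0.0424) and with quantile-normalized and rescaled values (-0.50 and -0.86, adjusted p = 0.0333 and 0.0107), with adjusted p up to 0.646 in the other alternatives. Between the genotypes at PD it was lower in Cnot4-null by a log2 difference of -1.20 (SE 0.21, adjusted p = 0.00318), or -1.86 relative to the median of all genes. With quantile-normalized values the difference was -1.21, with rescaled values -2.61, and it was called in 16 of 16 alternatives, with adjusted p from 0.000362 to 0.0338. The interaction was -1.49 (SE 0.29, adjusted p = 0.0108), or -2.94 with rescaled values (adjusted p = 0.00301). It was no longer called without WT PD replicate 1 (-1.43, adjusted p = 0.0596) or without WT PD replicate 2 (-1.54, adjusted p = 0.0522).

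Cnot2 and Cnot3 encode the partners of the NOT module, and the difference between the patterns of their transcripts was not tested. Cnot2 was at 35.6 and 40.3 FPKM at LZ and 45.3 and 52.9 at PD in WT, and 45.3 and 46.6 at LZ and 40.6 and 26.2 at PD in Cnot4-null. From LZ to PD it differed by 0.36 in WT (adjusted p = 0.246), a difference that was called with rescaled values (1.23, adjusted p = 0.00399), and by -0.48 in Cnot4-null (adjusted p = 0.140). The latter was -0.79 without Cnot4-null PD replicate 1 (adjusted p = 0.0150) and -0.18 without replicate 2 (adjusted p = 0.371), and was called with quantile-normalized and rescaled values (-0.70 and -1.05, adjusted p = 0.0249 and 0.0108). Its Cnot4-null PD values lay below both WT PD values, with a log2 difference of -0.57 (SE 0.24, adjusted p = 0.0812), or -1.23 relative to the median of all genes, that rested on which duplicate was kept: it was -0.88 without Cnot4-null PD replicate 1 (adjusted p = 0.00782) and -0.26 without replicate 2 (adjusted p = 0.209). With quantile-normalized and rescaled values it was called, at -0.66 and -1.97 (adjusted p = 0.0370 and 0.000709; alternatives up to 0.299). The interaction was -0.84 (SE 0.34, adjusted p = 0.1003), -1.15 without Cnot4-null PD replicate 1 (adjusted p = 0.0107), -0.54 without replicate 2 (adjusted p = 0.0973) and -2.29 with rescaled values (adjusted p = 0.00425). Cnot3 was at 9.39 and 12.3 FPKM at LZ and 0.853 and 2.61 at PD in WT, and 10.7 and 12.2 at LZ and 5.05 and 10.6 at PD in Cnot4-null. WT PD was below the 6 other libraries, and both pairs of PD libraries differed widely within the pair. Cnot3 fell by 2.19 in WT (SE 0.42, adjusted p = 0.00328), a fall called in 16 of 16 alternatives, and differed by -0.57 in Cnot4-null (adjusted p = 0.301). At PD it was higher in Cnot4-null by 1.70 (SE 0.42, adjusted p = 0.0138), or 1.04 relative to the median of all genes. This call was lost with quantile-normalized (0.46, adjusted p = 0.452) and with rescaled values (0.64, adjusted p = 0.240). It was also lost with no filter on genes (adjusted p = 0.0508), with only the libraries compared (adjusted p = 0.0733), and without WT PD replicate 1 (1.22, adjusted p = 0.10003) or without Cnot4-null PD replicate 2 (1.23, adjusted p = 0.0878). The interaction of Cnot3 was 1.62 (SE 0.60, adjusted p = 0.0792), and it was called without Cnot4-null PD replicate 1 (2.09, adjusted p = 0.0412) and with the replicate block (adjusted p = 0.0365). It was 0.36 with quantile-normalized and 0.52 with rescaled values (adjusted p = 0.715 and 0.516), and 1.14 without WT PD replicate 1 and 1.15 without Cnot4-null PD replicate 2 (adjusted p = 0.248 and 0.201).

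Rqcd1 and Cnot10 encode the remaining structural subunits. Rqcd1, which encodes CNOT9, was at 33.0 and 38.4 FPKM at LZ and 28.5 and 30.6 at PD in WT, and 32.1 and 31.5 at LZ and 20.3 and 22.1 at PD in Cnot4-null. Cnot4-null PD was the lowest group and did not overlap the others. The log2 difference from LZ to PD was -0.26 in WT (adjusted p = 0.261), which turned into a called difference of 0.60 with rescaled values (adjusted p = 0.0225). In Cnot4-null it was -0.57 (SE 0.18, adjusted p = 0.0387), -0.82 with quantile-normalized and -1.13 with rescaled values. The fall in Cnot4-null was not called without Cnot4-null LZ replicate 1 or 2 (adjusted p = 0.119 and 0.104) or without WT PD replicate 1 or 2 (adjusted p = 0.0787 and 0.0790), without the trend (adjusted p = 0.0618) or with only the libraries compared (adjusted p = 0.130). Between the genotypes at PD it was -0.46 (adjusted p = 0.0666), or -1.12 relative to all genes. It was called without Cnot4-null PD replicate 2 (-0.52, adjusted p = 0.0393), with no filter on genes (adjusted p = 0.0233), and with quantile-normalized and rescaled values (-0.75 and -1.85, adjusted p = 0.0242 and 0.000443), and in the 12 other alternatives it was not, with adjusted p up to 0.247.

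Cnot10 was at 54.2 and 49.7 FPKM at LZ and 20.7 and 20.6 at PD in WT, and 50.4 and 41.5 at LZ and 29.98 and 27.3 at PD in Cnot4-null. Its product holds the N-terminal region of the scaffold, and both PD groups were below both LZ groups. It fell by 1.29 in WT (SE 0.19, adjusted p = 0.000807) and by 0.66 in Cnot4-null (SE 0.19, adjusted p = 0.0248). With rescaled values the WT difference was -0.43 (adjusted p = 0.0745) and the difference in Cnot4-null was -1.23 (adjusted p = 0.00149). The fall in Cnot4-null was not called without Cnot4-null LZ replicate 1 (-0.52, adjusted p = 0.117) or without WT PD replicate 1 or 2 (adjusted p = 0.0553 for either), or with only the libraries compared (adjusted p = 0.105). At PD the genotypes differed by 0.45 (adjusted p = 0.0784; called with no filter on genes, adjusted p = 0.0411), -0.21 against the median gene, 0.11 with quantile-normalized and -0.94 with rescaled values (called, adjusted p = 0.00326), so its direction at PD depended on the scaling.

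The CCR4-type nucleases Cnot6 and Cnot6l both had less transcript at PD. Cnot6 was at 39.1 and 34.2 FPKM at LZ and 21.7 and 17.9 at PD in WT, and 51.2 and 43.8 at LZ and 21.9 and 24.03 at PD in Cnot4-null. The stages did not overlap in either genotype, and at PD both Cnot4-null values lay just above both WT values. It fell by 0.86 in WT (SE 0.20, adjusted p = 0.00784; without WT PD replicate 2, by a log2 difference of -0.72, adjusted p = 0.0681) and by 1.02 in Cnot4-null (SE 0.20, adjusted p = 0.00599). With rescaled values the WT difference was -0.0026. At PD the genotypes differed by 0.21 (adjusted p = 0.400), by -0.46 relative to all genes, by -0.19 with quantile-normalized and by -1.17 with rescaled values, the last of which was called (adjusted p = 0.00167).

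Cnot6l was at 18.6 and 14.6 FPKM at LZ and 2.002 and 2.22 at PD in WT, and 20.3 and 13.6 at LZ and 4.24 and 9.02 at PD in Cnot4-null. WT PD was the lowest group, and Cnot4-null PD lay between it and the LZ libraries. As deposited, it fell by 2.49 in WT (SE 0.36, adjusted p = 0.000788), and this was called in 16 of 16 alternatives. That was the largest fall among the 10 members, a rank that passed to Cnot3 without WT LZ replicate 1 (log2 difference -2.36 against -2.33) or WT PD replicate 2 (-2.67 against -2.54). In Cnot4-null it fell by 1.28 (SE 0.36, adjusted p = 0.0239), a call lost without Cnot4-null LZ replicate 1 (-1.01, adjusted p = 0.144), Cnot4-null PD replicate 1 (-0.81, adjusted p = 0.0842) or WT PD replicate 1 or 2 (adjusted p = 0.0524 and 0.0526), with no filter on genes (adjusted p = 0.0659) and with only the libraries compared (adjusted p = 0.103). At PD it was higher in Cnot4-null by 1.22 (SE 0.36, adjusted p = 0.0255), or 0.56 relative to all genes, but -0.075 with quantile-normalized and 0.11 with rescaled values. Without WT PD replicate 1, WT PD replicate 2 or Cnot4-null PD replicate 2, the differences were 1.17, 1.27 and 0.75, with adjusted p of 0.123, 0.103 and 0.107, and the call was also lost with no filter on genes (adjusted p = 0.0688) and with only the libraries compared (adjusted p = 0.0815). The interaction was 1.21 (SE 0.51, adjusted p = 0.111), 1.68 without Cnot4-null PD replicate 1 (adjusted p = 0.0251), -0.094 with quantile-normalized and 0.055 with rescaled values.

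Cnot7 and Cnot8 encode the CAF1-type nucleases, and the difference between their patterns was not tested. Cnot7, at chr8:41577894-41601201, was at 17.02 and 35.4 FPKM at LZ and 18.7 and 21.7 at PD in WT, and 18.6 and 19.5 at LZ and 10.3 and 15.0 at PD in Cnot4-null. WT LZ replicate 2 was the highest of the 8 libraries, the rest lay between 10.3 and 21.7, and Cnot4-null PD was lowest. With values as deposited, limma called Cnot7 in 0 of the 5 comparisons, and in 0 of them was its unadjusted p under 0.05. Its log2 difference from LZ to PD was -0.28 in WT (SE 0.35, adjusted p = 0.556) and turned to 0.23 without WT LZ replicate 2 and to 0.58 with rescaled values. Between the genotypes at PD it was -0.65 (SE 0.35, adjusted p = 0.1501), or -1.32 relative to all genes, with a 95% interval from -1.48 to 0.17. It was called with quantile-normalized (-1.19, adjusted p = 0.0498) and rescaled values (-2.01, adjusted p = 0.00195). The log2 interaction was -0.30 (adjusted p = 0.657), 0.21 without WT LZ replicate 1 and -1.70 with rescaled values (adjusted p = 0.0255), and the difference from LZ to PD in Cnot4-null was -0.58 (adjusted p = 0.212), or -1.12 with rescaled values (adjusted p = 0.0277).

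Cnot8, at chr11:57917655-57932096, was at 29.6 and 36.5 FPKM at LZ and 13.5 and 12.7 at PD in WT, and 29.9 and 31.5 at LZ and 20.1 and 30.6 at PD in Cnot4-null. WT PD was below the 6 other libraries, and Cnot4-null PD replicate 2 lay among the LZ libraries. It fell by 1.26 in WT (SE 0.24, adjusted p = 0.00321; with rescaled values, -0.43, adjusted p = 0.163) and differed by -0.30 in Cnot4-null (adjusted p = 0.345; without Cnot4-null PD replicate 2, -0.59, adjusted p = 0.0413; with rescaled values, -0.86, adjusted p = 0.0183). At PD it was higher in Cnot4-null by 0.87 (SE 0.24, adjusted p = 0.0211), or 0.21 relative to all genes, 0.42 with quantile-normalized and -0.49 with rescaled values. The call was lost without WT PD replicate 1 (0.91, adjusted p = 0.0893) or WT PD replicate 2 (0.83, adjusted p = 0.111), with only the libraries compared (adjusted p = 0.0698) and with both other scalings. The interaction was 0.97 (SE 0.35, adjusted p = 0.0713), 1.26 without Cnot4-null PD replicate 1 (adjusted p = 0.0112), and 0.53 with quantile-normalized and -0.44 with rescaled values.

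Cnot4, the ligase, rose by 1.06 from LZ to PD in WT (SE 0.20, adjusted p = 0.00282), or by 1.93 after rescaling. This rise was called in 16 of 16 alternatives. The rise in Cnot4-null was 0.61 (SE 0.20, adjusted p = 0.0410), or 0.024 after rescaling. In Cnot4-null the adjusted p was 0.0548 without Cnot4-null LZ replicate 1, 0.182 without Cnot4-null LZ replicate 2, 0.0751 without Cnot4-null PD replicate 1, from 0.0634 to 0.0807 without each WT library, 0.0662 without the trend and 0.143 with only the libraries compared. Between the genotypes at PD it differed by -0.33 (adjusted p = 0.192), or -0.99 relative to all genes and -1.75 with rescaled values (adjusted p = 0.000506), and the interaction was -0.45 (adjusted p = 0.249), or -1.91 with rescaled values (adjusted p = 0.00358). Cnot4 and Cnot1 were the 2 members called higher at PD in WT, and unlike Cnot1, Cnot4 stayed above the LZ range in Cnot4-null PD.

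The summed FPKM of the 10 members was 315 ± 16.7 at LZ and 303 ± 0.664 at PD in WT, and 326 ± 23.1 at LZ and 249 ± 6.23 at PD in Cnot4-null (SD, n = 2 each), between 0.0284 and 0.0465% of all FPKM of a library. As deposited, the sum thus differed less between groups than several of its parts did, while Cnot4-null PD was lowest. As a share of all FPKM the PD groups overlapped, at 0.0284 and 0.0362% in Cnot4-null and 0.0355 and 0.0358% in WT. The 5 structural genes held 53.1 ± 0.937% of the sum at LZ and 57.1 ± 1.22% at PD in WT, and 53.1 ± 1.05% at LZ and 48.9 ± 4.05% at PD in Cnot4-null (SD, n = 2 each). Of the sum of the 10 members, Cnot1 held 24.8 and 22.8% in WT PD, 14.0 and 10.9% in Cnot4-null PD, and between 9.40 and 11.9% in LZ libraries. Cnot10 held 6.85 and 6.80% in WT PD, 11.8 and 11.1% in Cnot4-null PD, and between 13.4 and 17.9% at LZ. The scaffold thus took a larger share in WT PD than in any other group, and Cnot10 a smaller one.

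The CCR4-type nucleases together held 7.84 and 6.63% in WT PD, 10.3 and 13.5% in Cnot4-null PD, and between 14.9 and 20.9% at LZ. For the CAF1-type nucleases the shares were 10.6 and 11.3% in WT PD, 12.0 and 18.6% in Cnot4-null PD, and between 14.1 and 22.0% at LZ. The summed share of each nuclease type was thus lowest in WT PD. Within the CAF1 type this held for Cnot8, at 4.46 and 4.18% in WT PD, and not for Cnot7. Cnot7 held 6.17 and 7.16% in WT PD, 4.05 and 6.14% in Cnot4-null PD, and between 5.42 and 10.8% at LZ. Cnot4 held 25.3 and 24.1% at PD in WT and 25.9 and 21.8% at PD in Cnot4-null, against 10.7 to 12.6% at LZ. Its share followed the stage and overlapped between the genotypes.

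**Figure D4:**
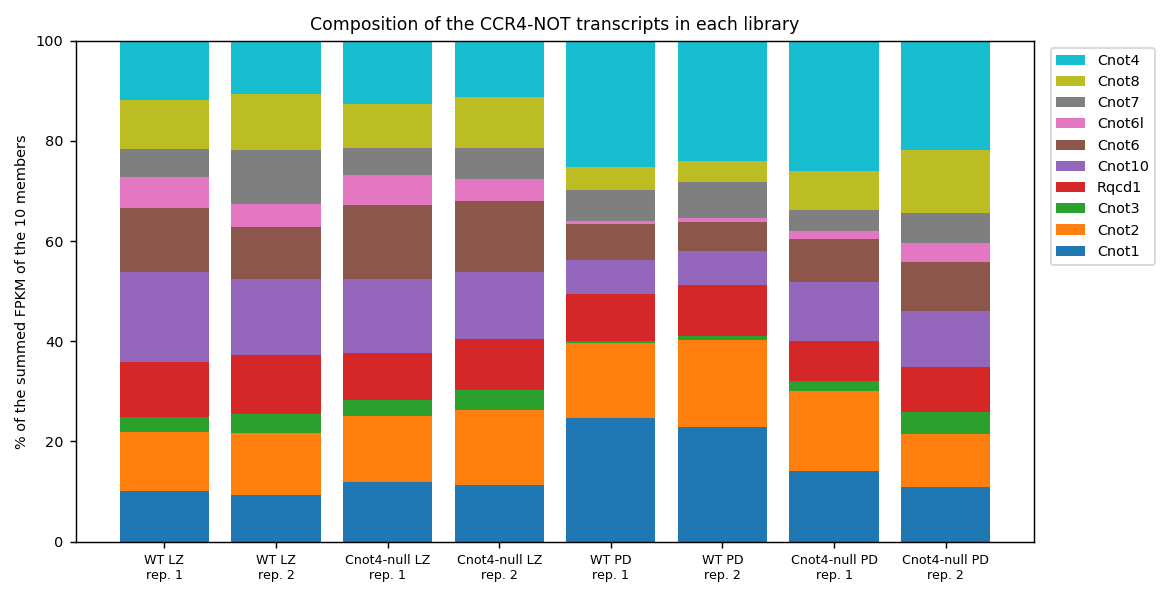
Share (%) of each member in the summed FPKM of the 10 members, 1 bar a library. Cnot4 held 21.8 to 25.9% in the 4 PD libraries, and Cnot1 held 24.8 and 22.8% in WT PD.

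Ratios within a library compare members without any scaling between libraries, and no test was made of them. The FPKM ratio of Cnot7 to Cnot8 was 0.576 and 0.970 at LZ and 1.38 and 1.71 at PD in WT, and 0.621 and 0.620 at LZ and 0.512 and 0.492 at PD in Cnot4-null. Cnot7 thus exceeded Cnot8 in both WT PD libraries and was below it in the 6 others. The paper describes Cnot7 as much more expressed than Cnot8 in male germ cells. Cnot7 above Cnot8 was found here in WT PD only. The paper plots both genes from other, published RNA-seq that runs from leptotene to round spermatids, so sources and stages differ. Cnot8 may also be understated here, as given above. The ratio of Cnot6 to Cnot6l was 2.104 and 2.35 at LZ and 10.9 and 8.09 at PD in WT, and 2.52 and 3.23 at LZ and 5.16 and 2.66 at PD in Cnot4-null. Cnot6 exceeded Cnot6l in each library, by the most in WT PD.

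The ratio of Cnot2 to Cnot3 was 3.80 and 3.27 at LZ and 53.1 and 20.3 at PD in WT, and 4.22 and 3.82 at LZ and 8.03 and 2.46 at PD in Cnot4-null, so the partners of the NOT module were most unequal in WT PD. The ratio of Cnot4 to Cnot1 was 1.17 and 1.14 at LZ and 1.02 and 1.05 at PD in WT, and 1.06 and 0.988 at LZ and 1.85 and 2.01 at PD in Cnot4-null. Cnot4 and Cnot1 thus stood near equality in 6 libraries and apart in the Cnot4-null PD libraries.

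**Figure D5:**
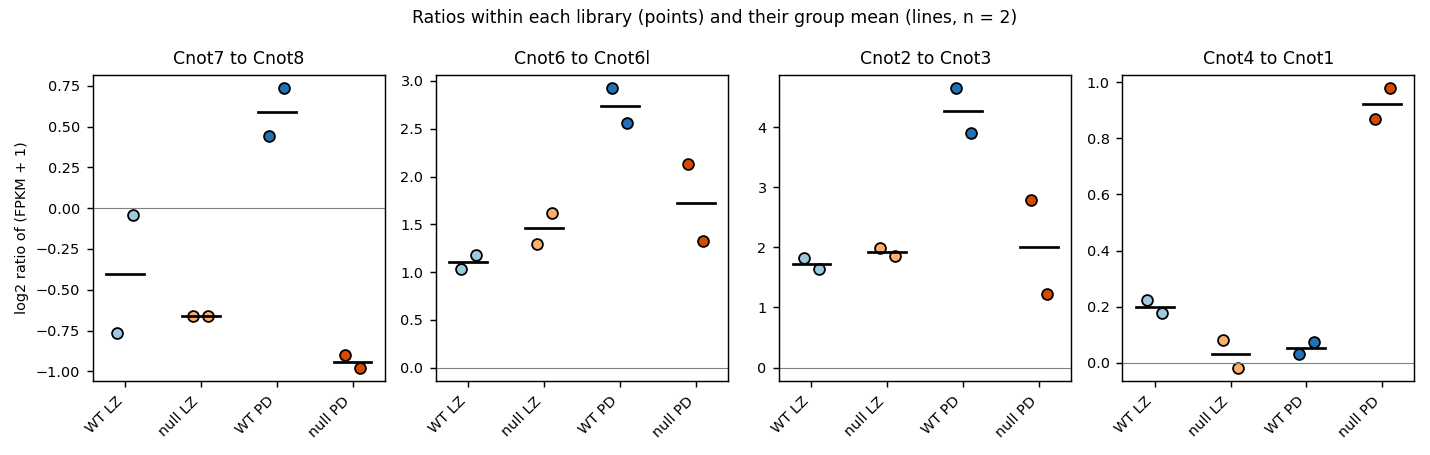
Log2 ratio of (FPKM + 1) of 4 pairs of members in each library (points, coloured by group) with the group mean (lines, n = 2). For Cnot7 to Cnot8 the values were 0.44 and 0.73 in WT PD and below 0 in the other 6 libraries.

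The Cnot4-null PD duplicates also differed from each other. Replicate 2, with the larger Leydig sum and the smaller late spermatocyte sum, had more Cnot3 (10.6 against 5.05 FPKM), Cnot6l (9.02 against 4.24), Cnot8 (30.6 against 20.1) and Cnot7 (15.0 against 10.3). It had less Cnot1 (26.7 against 35.6 FPKM), Cnot2 (26.2 against 40.6) and Cnot4 (53.5 against 65.9). Rqcd1, Cnot10 and Cnot6 differed less, at 22.1 against 20.3, 27.3 against 29.98 and 24.03 against 21.9 FPKM. Whether the makeup of the cells accounts for this was not tested.

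The genes most like Cnot4 were sought among 9347 genes with mean FPKM of at least 5, by the Pearson correlation of log2(FPKM + 1) over the 8 libraries, as a description. They were Lrrc25 (r = 0.997), Atp9b (0.996), Pabpc1 (0.996), Lrrc6 (0.995) and Ddit3 (0.995). Pabpc1, which encodes the cytoplasmic poly(A)-binding protein, was at 287 and 259 FPKM at LZ and 1546 and 1365 at PD in WT, and 399 and 301 at LZ and 1106 and 632 at PD in Cnot4-null. Those most like Cnot7 were Gm14872 (r = 0.947), Heatr2 (0.935), Trim23 (0.8898), Zfp746 (0.883) and Rqcd1 (0.869). The 8 libraries fall into 4 groups of 2, so the points are not independent, and for Cnot7 a single WT LZ library stood above the rest.

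Other genes of the pathway were taken from a list of 41 associated subunits, other deadenylases and adaptors. In WT, 4 of 41 were higher and 22 lower at PD than at LZ (21.6 and 36.2% of all genes were). In Cnot4-null, 6 were higher and 11 lower (27.8 and 18.2% of all genes), and between the genotypes limma called 0 of 41 at LZ (3 higher and 2 lower at an unadjusted p under 0.05), whereas at PD 21 were higher and 1 lower in Cnot4-null (41.6 and 11.5% of all genes). The median difference of the list between the genotypes at PD was 0.72, close to that of all genes, whereas that of the 10 members was -0.061. The gap between members and all genes depended on the scaling. Their medians were -0.20 and -0.10 with quantile-normalized values, and -1.46 and -0.21 with rescaled values.

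Of the associated subunits, Cnot11 (listed as D1Bwg0212e), the partner of CNOT10, was at 23.5 and 12.4 FPKM at LZ and 15.7 and 16.7 at PD in WT, and 26.4 and 21.3 at LZ and 17.9 and 14.0 at PD in Cnot4-null, and it was called neither between the stages in WT (-0.076, adjusted p = 0.882) nor between the genotypes at PD (-0.027, adjusted p = 0.953; -0.69 relative to all genes). Cnot11 is named here after its values were seen. Whether it differed from Cnot10 was not tested. Tnks1bp1 fell by 1.42 in WT (adjusted p = 0.00430) and was higher in Cnot4-null PD by 1.52 (adjusted p = 0.00500; 0.85 relative to all genes), from 0.0462 and 0.233 FPKM in WT PD to 1.71 and 2.90.

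Among 9 other deadenylases, 1 was higher and 5 lower at PD in WT (21.6 and 36.2% of all genes were), and 3 were higher and 1 lower in Cnot4-null PD than in WT PD (41.6 and 11.5% of all genes). Parn, the poly(A)-specific ribonuclease, was at 23.1 and 22.6 FPKM at LZ and 0.854 and 1.09 at PD in WT, and 19.7 and 21.2 at LZ and 16.8 and 14.2 at PD in Cnot4-null. It fell by 3.60 in WT (adjusted p = 2.41e-05) and was higher by 3.06 in Cnot4-null PD (adjusted p = 0.000155; 2.40 relative to all genes). Angel1 rose by 1.62 in WT (adjusted p = 0.000499), and Toe1 was lower in Cnot4-null PD by a log2 difference of -0.84 (adjusted p = 0.0469; -1.50 relative to all genes).

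Among 30 adaptors and recruiters, 3 were higher and 16 lower at PD in WT (21.6 and 36.2% of all genes were), and 17 were higher and 0 lower in Cnot4-null PD (limma, against 41.6 and 11.5% of all genes; 2 were lower at an unadjusted p under 0.05). Cpeb1, a cytoplasmic polyadenylation element-binding protein, fell by 4.67 in WT (adjusted p = 2.81e-05), and Btg4, an adaptor of the CAF1-type nucleases, rose by 2.90 (adjusted p = 0.00452), at 2.53 and 0.133 FPKM in WT LZ and 14.3 and 13.5 in WT PD. Zfp36, which binds AU-rich elements, was higher by 5.18 in Cnot4-null PD (adjusted p = 0.00329; 4.52 relative to all genes), at 14.2 and 139 FPKM against 0.246 and 0.301 in WT PD. The larger value was in Cnot4-null PD replicate 2, the library with the largest Leydig, Sertoli, macrophage, stromal and endothelial sums. Whether such cells had a part in the level of Zfp36 was not tested.

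The 10 members lie on 8 chromosomes, 0 of them on X or Y, with Cnot1 and Cnot7 on chromosome 8 and Cnot6 and Cnot8 on chromosome 11. On chromosome 8, Cnot1 rose in WT whereas Cnot7 was not called, and on chromosome 11 both fell. The longest coding transcripts ran from 2099 nt for Cnot8 to 8564 nt for Cnot6l, and both of these fell in WT.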

How the data were processed

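RNA-seq values of 8 libraries, 2 in each of 4 groups, were used, with groups taken from the labels. The deposited FPKM come from the authors, by TopHat2 2.1.1 on mm9 with unique reads only and Cufflinks 2.2.1. No scaling between libraries is described. The methods give amplification of cDNA from sorted cells, and the labels a library kit for total RNA. Which was used was not determined.

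The tests covered genes that exceeded FPKM 1 in 1 or more libraries. The model of 4 group means was fitted to log2(FPKM + 1) of the 8 libraries in R 4.3.3 by lmFit, contrasts.fit and eBayes with trend of limma 3.58.1 (4 residual degrees of freedom), two-sided, with Benjamini-Hochberg adjustment over all genes kept in each of 5 contrasts, and was tested on simulated data. Depth was estimated from genes with 1 transcript of 1500 to 6000 nt in GENCODE vM1 and FPKM under 0.15, as the mode of the value that 1 fragment gives. Between 40.2 and 58.1% of these genes lay at the mode, and effective transcript length was not modelled. Copies of 50-base stretches were counted as exact matches in the mouse genome. Python 3.11.15, numpy 2.4.6, pandas 2.3.3, numba 0.67.0 and matplotlib 3.10.9 were used.

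The members and lists were chosen with earlier results of these data known. Named genes are the 10 members. Of each part of the pathway list, they are the largest rise and fall among those called at PD between genotypes and in WT between stages. For Cnot4 and Cnot7, they are the 5 most correlated genes, and of each marker list the most abundant gene and markers at 0. The lists are early and late spermatocyte, spermatid, spermatogonia, Sertoli, Leydig, macrophage, peritubular and stroma, and endothelial. Other named markers were chosen after their values were seen. Alternatives were other filters, pseudocount 0.1, quantile normalization, rescaling to the same median, no trend, fewer libraries, a replicate block and leaving out each library.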

Additional observations from a re-analysis of the deposited data

Results flagged for a closer look

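The genotype effect on Cnot1 differed between the stages in the interaction of genotype and stage. Its log2 difference was -1.49 (limma, SE 0.29, adjusted p = 0.0108). Over 15 alternatives it ran from -2.94 (rescaled values, adjusted p = 0.00301) to -1.29. The call was lost without WT PD replicate 1 or without WT PD replicate 2. Between the genotypes, Cnot1 differed by 0.29 at LZ and by -1.20 at PD. At PD both Cnot4-null libraries were below both WT libraries. Markers of Leydig cells, stroma, spermatids, spermatogonia and macrophages were higher and those of late spermatocytes lower in the same Cnot4-null PD libraries, and their part in the difference was not tested.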

How the results depend on the processing

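Over the alternatives, 630 values of member differences were recomputed, of which 539 kept their direction and side of the threshold. With the sign kept, 48 lost the call and 31 gained it. The 12 that changed sign were counted apart, whether or not the call also changed. Of the changes of sign, 7 came with rescaling to the same median. From LZ to PD in WT they gave 0.60 for Rqcd1 and 0.58 for Cnot7. Between the genotypes at PD they gave -0.94 for Cnot10, -1.17 for Cnot6 and -0.49 for Cnot8, and in the interaction -0.80 for Cnot10 and -0.44 for Cnot8. With quantile normalization the difference at PD was -0.19 for Cnot6 and -0.075 for Cnot6l, and the interaction of Cnot6l -0.094. For Cnot7, leaving out each library gave -0.78 (without WT LZ replicate 1) to 0.23 (without WT LZ replicate 2) from LZ to PD in WT, and an interaction of -0.81 (without WT LZ replicate 2) to 0.21 (without WT LZ replicate 1). The cause of the changes with scaling was not tested.

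Rescaling gave 8 members called between the stages in Cnot4-null (5 as deposited), 7 between the genotypes at PD (4) and 7 in the interaction (1), with 7306 genes called in the interaction (4770). It gave 36.9% of the called genes higher at PD between the genotypes and 29.8% in the interaction, and quantile normalization 41.0 and 44.1%, against 78.3 and 86.8% as deposited. In WT the called genes were 54.7% higher after rescaling against 37.4%, and in Cnot4-null 39.1% after rescaling and 37.4% after quantile normalization against 60.5%. The stricter filter gave 49.3% in Cnot4-null. Without the trend, 3 members and 7285 genes were called between the stages in Cnot4-null (7316 genes as deposited). With only the libraries compared, 1 member and 3955 genes were called there, 1 member and 6088 genes between the genotypes at PD (8449 genes as deposited), and 4 genes at LZ (15). No filter gave 31 genes at LZ, and the stricter filter 5219 genes at PD (8449), where fewer genes were tested.

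Without each library in turn, the members called ranged from 6 to 7 between the stages in WT, 1 to 6 in Cnot4-null, 0 to 0 between the genotypes at LZ, 1 to 5 at PD and 0 to 5 in the interaction. All genes called ranged from 6930 to 10156, 4644 to 8333, 9 to 25, 4057 to 9956 and 1656 to 7929 in the same order. A group left with 1 library was assumed to vary like the others. With the replicate block, 2 members were called in the interaction (Cnot1, and Cnot3 with an adjusted p of 0.0365) and 7, 5, 0 and 4 in the other comparisons. All genes called were then 4355 in the interaction and 9085, 7128, 16 and 8298 in the others. The deviations of replicate 1 from the group means correlated between groups by -0.065 to 0.19, and what samples of 1 number share is not stated. The log2 ratios of Cnot7 to Cnot8 and of Cnot6 to Cnot6l have the same sign with and without a pseudocount. Adding 1 to both values cannot change which is larger, so this is no check. With 2 libraries a group, small differences could not be told from no difference.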

Other observations

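Exact copies of member transcripts elsewhere in the genome lay in few places. Those of Cnot3 were on chromosome 3 (696 stretches of 50 bases), those of Cnot8 on chromosome 8 (234), and those of Cnot1 on chromosomes 14 (865) and 1 (10). The copies of Cnot3 and Cnot8 overlap no gene of the annotation used. The 50-base stretches of Cnot1 on chromosome 14 overlap Gm6158, which is not in the deposited tables.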
